A study of Sminthopsis crassicaudata with 9 samples.

Results

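Distal H3K4me3 peaks without H3K27ac are regions of chromatin in the newborn dunnart face that carried trimethylation of histone H3 at lysine 4 (H3K4me3) in both pools of young, lay far from any annotated gene start and had no called peak of acetylation at lysine 27 (H3K27ac) over them in either pool. The members were replicate 1 H3K4me3 peaks selected on a q-value under 0.05, a fold enrichment under 20, an overlap with a replicate 2 H3K4me3 peak that covered 50% or more of one of the pair, no base in common with H3K27ac peaks of either pool, and a distance of over 3 kb to every transcription start site (TSS). Of 108146 reproducible H3K4me3 peaks, 9009 (8.33%) met the rule. These H3K4me3 and H3K27ac values chose the regions, and their fold enrichment and their lack of H3K27ac are described below without a test.

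The fat-tailed dunnart, Sminthopsis crassicaudata, is a small carnivorous marsupial whose young are born with an immature head. Chromatin came from facial prominences, dissected free of tongue, neural tube and eye primordia, of young less than 24 hours old, in 2 pools of 26 and 27 heads by the labels, and each mark was measured in each pool against the input DNA of the same pool. RNA was sequenced from 3 libraries of face, each a pool of 2 young. All samples are of 1 tissue, 1 age and no treatment, so there is no contrast between groups, and the regions are compared with other classes of region in the same samples.

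H3K4me3 is laid down by the COMPASS and MLL methyltransferases and is strongest at CpG-rich gene starts, where it is usually joined by H3K27ac when the gene is transcribed. H3K27ac, written by the p300 and CBP acetyltransferases, also marks active enhancers, which mostly carry monomethylated rather than trimethylated lysine 4. H3K4me3 without acetylation is known from CpG islands held silent by Polycomb, from unannotated starts and from weak or poised elements. None of those other features was measured in these samples.

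The steps of the rule show where the class sits. In the 2 pools, 148361 and 154327 H3K4me3 peaks passed the q limit, and 96932 of the reproducible ones had a fold enrichment under 20. No base of H3K27ac lay over 9501 of these, of which 301 were within 3 kb of a TSS and 191 were on scaffolds that hold no gene model and so have no distance. The upper fold limit removed nothing here, since 0 peaks at or above it met the other terms. Among the 87929 reproducible peaks that were distal and under the fold limit, 67979 met H3K27ac in both pools, 5669 in pool 1 only and 5272 in pool 2 only, so regions acetylated in a single pool (10941) were more numerous than those acetylated in neither (9009). The 2 comparison classes used below are 41915 distal H3K4me3 peaks that share at least 50% of both lengths with a reproducible H3K27ac peak (both marks), and 31604 distal reproducible H3K27ac peaks that share no base with H3K4me3.

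Near each limit the values were as follows. The member closest to a gene start lay 3.02 kb upstream of LOC116419281, with 8.27-fold and 4.73-fold enrichment in pools 1 and 2, and the farthest excluded peak lay 2.96 kb from LOC116420314 with 3.14-fold and 2.66-fold enrichment. The weakest member in pool 1 by -log10 q (1.34) was 6.24 kb from TPM3, a muscle and cytoskeletal tropomyosin, and the weakest in pool 2 (1.31) was 181 kb from CTDP1, a phosphatase of RNA polymerase II. Another 364 peaks met all other terms but fell short of the q limit in pool 1, at a median of 2.47-fold and a -log10 q of up to 1.27. Another member, near MAPKAPK2, was separated by 1 bp from an H3K27ac peak of pool 1, and 293 members (3.25%) overlapped a deposited H3K27ac peak that did not pass the q limit. The smallest length shared between the pools was 50% among members, while 318 peaks overlapped by less, at most 49.8%.

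These were weak and narrow peaks. The median fold enrichment over input was 4.12 in pool 1 and 4.24 in pool 2 (n = 9009 regions), with the middle 50% of regions between 3.49 and 5.03 in pool 1 and between 3.46 and 5.22 in pool 2. For regions with both marks the medians were 4.51 and 4.65. Median length was 501 bp and 469 bp, against 822 bp and 759 bp for both marks. Length is not free of the rule, since a longer peak has more bases that could meet H3K27ac. The classes differed most in their upper ends, since 5% of members were above 6.60-fold in pool 1 and 6.89-fold in pool 2, whereas the same share of regions with both marks was above 9.35-fold and 10.6-fold.

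Few DNA fragments stood behind each member. The deposited fold enrichment and p-value of a peak can be solved together for a whole number of fragments at its summit and for the local background, and this recovered whole numbers for 99.97% of members in pool 1 and 99.98% in pool 2, within 0.001 of the deposited -log10 p. The median member had 12 fragments in pool 1 and 13 in pool 2. A Poisson 95% interval, which covers counting error only, runs from 6.20 to 21.0 for 12 fragments and from 6.92 to 22.2 for 13. The most frequent background was 1.78 fragments in pool 1 and 2.06 in pool 2, and the fewest fragments of any called peak was 7 in all 4 lists. A member at the 5th percentile had 8 fragments in either pool, and one at the 95th had 19 in pool 1 and 23 in pool 2. Regions with both marks had medians of 13 and 15.

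**Figure D1:**
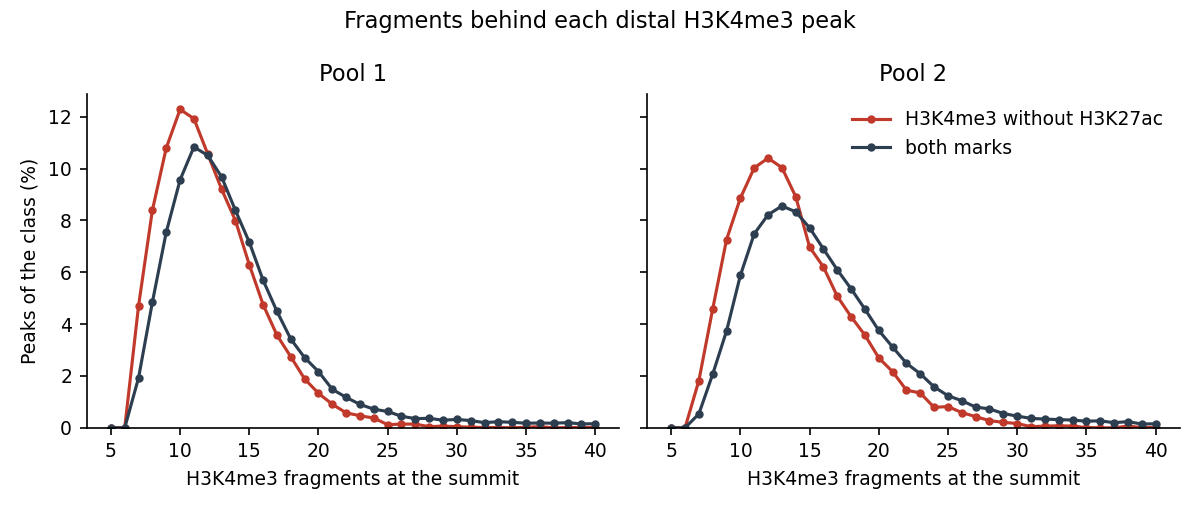
Percent of peaks (vertical axis) by the number of H3K4me3 fragments at the summit (horizontal axis, 5 to 40 shown) in pools 1 and 2, for distal H3K4me3 peaks without H3K27ac (red, n = 9009) and distal peaks with both marks (dark, n = 41915). Both curves begin at 7 fragments, and 5% of members lie beyond 19 fragments in pool 1 and 23 in pool 2, against 28 and 36 for both marks.

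Agreement between the pools went with the number of fragments. Of 20221 distal replicate 1 peaks without H3K27ac, 44.6% had a partner in replicate 2, compared with 74.7% of 105690 distal peaks that met H3K27ac. At 7 to 9 fragments in pool 1, 25.6% of the 8394 peaks without H3K27ac and 52.3% of the 26938 with it had a partner. At 10 to 12 fragments the shares were 45.5% and 71.5%, at 13 to 16 fragments 70.4% and 87.9%, and at 17 to 25 fragments 89.4% and 97.4%. At 26 or more fragments, 86.1% of 115 peaks without H3K27ac and 99.75% of 3205 with it had a partner. Peaks without H3K27ac thus had the lower share at each of these fragment numbers. The peaks without H3K27ac that had no partner were weaker, at a median of 3.37-fold, than the members.

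Within the class, strengths in the pools were only loosely related. Pearson's r of log2 fold enrichment between pools was 0.32 over the 9009 members, against 0.66 over the 41915 regions with both marks. This is a description over regions that share their 2 libraries, and the narrower range of fold enrichment among members bears on it. The higher of the 2 values was a median of 1.23 times the lower in either class, and 80.3% of members were within 1.5 times. The rule asked for overlap between the pools, so agreement in position was in part chosen by it. Summits of the 2 pools were a median of 69 bp apart, against 131 bp for both marks, whose peaks were longer. The share of regions with 50% or more of both lengths in common was 84.5% in either class.

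The strongest members by mean fold enrichment were mostly narrow replicate 1 peaks whose replicate 2 partner was a broad, strong peak. At ZFAND5, a zinc finger protein linked to the proteasome, a 325 bp peak (scaffold00056:12930654-12930978, 3.18 kb downstream of the TSS) had 4.15-fold enrichment in pool 1 and its partner of 3976 bp had 88.2-fold in pool 2. At PAX5, the B cell transcription factor, the values were 2.76-fold and 53.5-fold, at NANOG, the pluripotency factor, 3.30-fold and 48.1-fold, and at GCGR, the glucagon receptor, 5.1-fold and 35.3-fold. LOC100921869, MPP1 and SOGA3 had the same form. These 7 members are all those at or over 20-fold in pool 2. Their partners were 2342 to 6357 bp long and all 7 shared bases with H3K27ac, which the rule did not ask of the partner. Each also had another, stronger H3K4me3 peak beside it in pool 1, 295 to 549 bp away and from 17.9-fold to 71.5-fold, so the member lay on the flank of a stronger peak in that pool. Their own pool 1 values ran from 2.65-fold to 5.1-fold. In all, 178 members (1.98%) had a partner that touched H3K27ac, and beyond them the highest pool 2 value was 12.7-fold.

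Ranked by the lower of the 2 pools instead, an order chosen after the values were seen, the leading member was nearest to IL15RA, the receptor chain that presents interleukin 15 (scaffold00040:14937491-14938063, 573 bp, 45.9 kb downstream of the TSS, inside a gene model). It had 10.8-fold enrichment from 29 fragments in pool 1 and 10.1-fold from 30 in pool 2, and the nearest H3K27ac peaks were 10.4 kb and 10.2 kb away. IL15RA itself stood at 4.61, 4.01 and 2.62 TPM (transcript counts scaled for exon length and library total) in the RNA libraries FP1, FP2 and FP3. Another such region was nearest to TRAPPC6B, part of a vesicle tethering complex (scaffold00002:385588151-385588902, 16.5 kb downstream of the TSS), with 9.71-fold and 9.46-fold enrichment and H3K27ac 14.1 kb and 13.9 kb away. A further one was 34.0 kb downstream of the start of STRADB, a pseudokinase partner of LKB1, at 9.06-fold and 8.75-fold. LOC100934572, which is in both rankings, had a region of 8.99-fold and 12.7-fold, 150 kb downstream of its start, with H3K27ac 3.12 kb away in pool 1 and 15.6 kb in pool 2. These genes were at 3.75 ± 1.02 TPM (IL15RA), 39.6 ± 5.99 (TRAPPC6B), 26.5 ± 4.04 (STRADB) and 25.7 ± 8.16 (LOC100934572), as mean ± SD of 3 libraries. In this ranking, 5 of the 10 nearest genes (LOC105749912, TRNAK-CUU-4, LOC116422419, LOC116421606 and LOC116420437) had a count of 0 in all 3 libraries. TRNAK-CUU-4 lay 2100 kb away, beyond the limit of 1 Mb used for nearest genes below. The share of all gene models at 0 was not computed, so nothing is drawn from this count about the members. At another threshold, 56.5% of gene models with counts were over 1 TPM in all 3 libraries.

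The longest members were exceptions to the narrow form. The longest, 6382 bp in pool 1 and 2865 bp in pool 2, lay 219 kb from LOC105749560 (scaffold00054:11609590-11615971) with 6.76-fold and 7.07-fold enrichment. Those nearest to LOC100916539, LOC100928658 and LOC116423364 measured 4555, 3888 and 3704 bp in pool 1, and 1781, 2108 and 1016 bp in pool 2. The one with a symbol for its nearest gene was 208 kb from BRD1, a bromodomain subunit of a histone acetyltransferase complex, at 2932 bp and 1450 bp with 7.91-fold and 8.30-fold enrichment. For each of these 5 the pool 1 interval was the longer of the pair. Members are pool 1 intervals and stand here in order of pool 1 length, so this is not free of the ranking.

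A few members stood on a raised local background. The background was over 5 times its most frequent value in both pools for 41 members (0.455%) and for 74 regions with both marks (0.177%). These 41 had a median of 72 fragments in pool 1 and 70 in pool 2, far above the class as a whole. Their fold enrichment therefore rests on more fragments than that of other members, over a local background that was itself raised.

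H3K27ac was no nearer to the members than to other ground without it, in medians not matched for distance to the TSS. The nearest H3K27ac peak was a median of 10.9 kb away in pool 1 and 10.9 kb in pool 2, and 7.74 kb when the nearer of the pools was taken. Windows of 1 kb placed over the distal assembly and free of H3K27ac were 9.83 kb from it in either pool, and 7.18 kb from the nearer. Members lay farther from genes, at a median of 149 kb from the TSS against 78.2 kb for all distal windows. Whether H3K27ac was nearer to members than to windows at like TSS distance was not tested. Within 1 kb of H3K27ac lay 8.18% of members in pool 1 and 8.04% in pool 2, and within 50 kb 91.4% and 91.3%. The distance grew with distance from genes, from a median of 3.69 kb in pool 1 for members 3 to 10 kb from a TSS to 18.7 kb for those over 1 Mb away.

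Members lay farther from genes than the other distal regions. The median distance to the nearest TSS was 149 kb, against 41.4 kb for regions with both marks, 49.4 kb for H3K27ac without H3K4me3 and 78.2 kb for the distal assembly as a whole on a grid of 1 kb. More than 100 kb from any TSS lay 57.9% of members, 26.3% of both marks, 29.3% of H3K27ac without H3K4me3 and 43.7% of the assembly. Over 1 Mb from any TSS lay 623 members (6.92%), 334 regions with both marks (0.797%) and 137 H3K27ac regions (0.433%). Gene models here are those of the Tasmanian devil carried over to the dunnart scaffolds, so a gene start that was not carried over counts as absent. Regions are not replicates, so these shares were not tested.

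Counted per megabase of ground at each distance, members were densest far from genes and the other classes closest to them. From 3 to 10 kb there were 2.65 members per Mb, from 10 to 30 kb 2.60 and from 30 to 100 kb 2.45, a flat course. The density then went to 3.07 per Mb at 100 to 300 kb, 5.95 at 300 kb to 1 Mb and 9.90 beyond 1 Mb. Regions with both marks went from 26.8 per Mb at 3 to 10 kb to 6.76 at 300 kb to 1 Mb and 5.31 beyond 1 Mb. H3K27ac without H3K4me3 went from 15.7 to 4.72 and 2.18. Beyond 1 Mb the members were therefore the most frequent of the 3 classes.

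**Figure D2:**
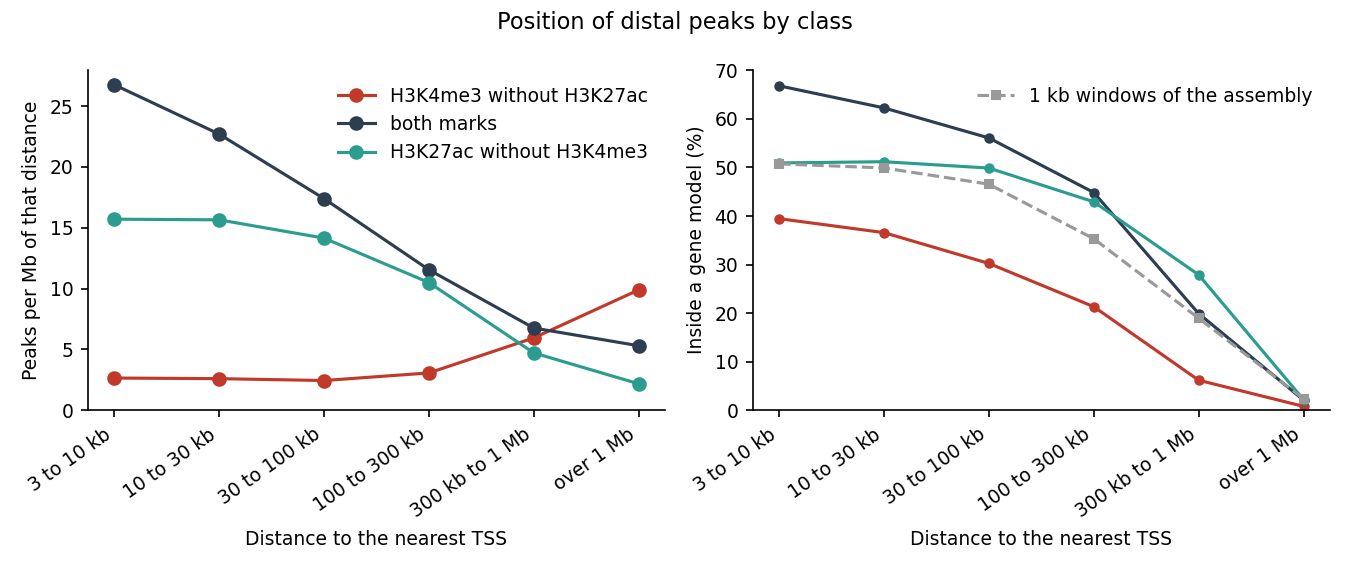
Left, distal peaks per Mb of assembly at each distance from the nearest TSS, by class. The members (red) go from 2.65 to 9.90 per Mb while regions with both marks (dark) go from 26.8 to 5.31. Right, percent of peaks inside a gene model at each distance, with 1 kb windows of the assembly as a dashed line. The red line is under the other lines at every distance.

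Fewer members than other regions lay in gene bodies. In all, 21.0% (1889) lay at least partly between the first and last exon of a gene model, against 54.3% of both marks, 47.2% of H3K27ac without H3K4me3 and 39.3% of the distal assembly. The difference was there at like distances: at 3 to 10 kb from a TSS the share was 39.5% for members, 66.8% for both marks and 50.7% for the assembly, and at 100 to 300 kb it was 21.3%, 44.8% and 35.3%. Exons were touched by 215 members (2.39%), compared with 23.4% of regions with both marks and 10.1% of those with H3K27ac without H3K4me3. Outside gene models, 55.6% of members were upstream of their nearest TSS, so neither side was strongly preferred.

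The number of pools in which a distal H3K4me3 region met H3K27ac ordered the same measures. With H3K27ac in 0, 1 and 2 pools the median distance to the TSS was 149, 104 and 38.2 kb, and the share inside gene models was 21.0%, 29.4% and 56.4%. Regions acetylated in a single pool were alike whichever pool it was, at 103 kb and 28.9% for pool 1 only, and 106 kb and 29.9% for pool 2 only. Median H3K4me3 fold enrichment differed little, at 4.12, 4.31 and 4.31 in pool 1, while median length went from 501 to 549 to 787 bp. Longer peaks have more bases that could meet H3K27ac, so this order of lengths is not free of the grouping.

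Per Mb, members were most frequent on the gene-poorest scaffolds. On 213 scaffolds spanning at least 1 Mb, which hold 8862 members, peaks per Mb and gene models per Mb had a Spearman rho of -0.21 for members and 0.70 for regions with both marks. Pearson's r was -0.10 and 0.45. These are descriptions over scaffolds of 1 assembly and of unequal length, which share their libraries. A peak on a scaffold without a gene model has no TSS distance and can be in no class. Such scaffolds count as 0 in these values and in the gene-poorest group below. Taking the scaffolds in 4 groups from fewest to most genes per Mb, the members numbered 6.0, 3.57, 2.56 and 2.95 per Mb, and regions with both marks 5.18, 7.50, 16.5 and 24.4 per Mb. In the gene-poorest group members (1548) outnumbered regions with both marks (1337).

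**Figure D3:**
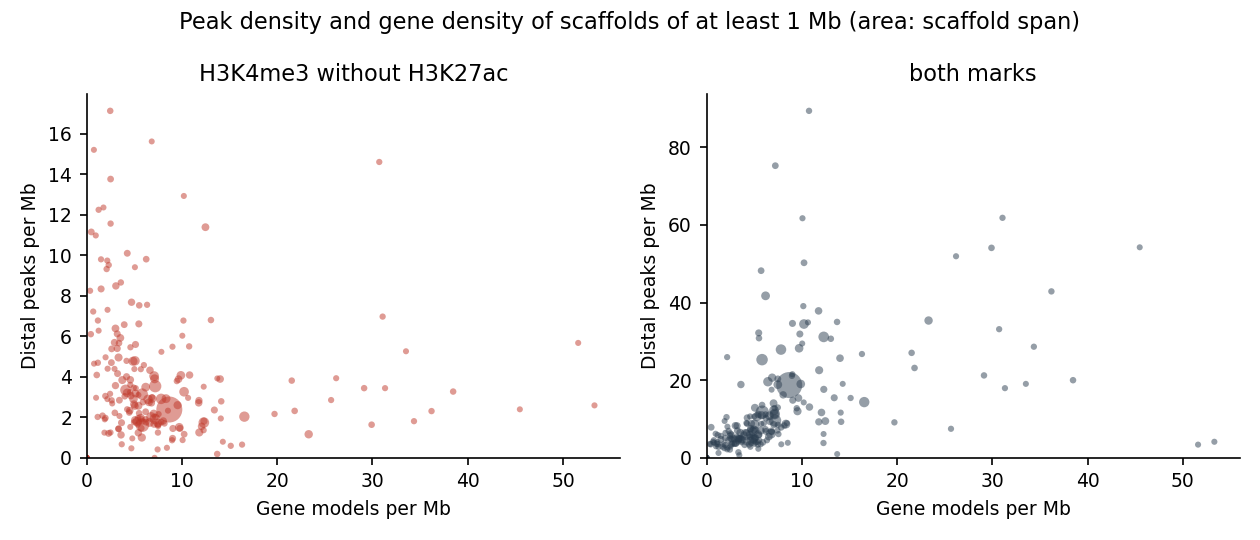
Distal peaks per Mb (vertical, separate scales) against gene models per Mb (horizontal) for 213 scaffolds of at least 1 Mb, point area by scaffold span. Members (left) have a rho of -0.21 and dense scaffolds both among those with few genes and among those with many, while regions with both marks (right) increase with gene density, with a rho of 0.70. Scaffolds without a gene model are at 0 by the rule in both panels.

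Of scaffolds spanning at least 5 Mb, scaffold00108 was the densest, with 90 members on 5.26 Mb (17.1 per Mb) and 30 regions with both marks. Its members were mostly nearest to PPP2R2A (37), a regulatory subunit of protein phosphatase 2A, GYG2 (24), a glycogenin that primes glycogen synthesis, and NDST4 (12), a heparan sulfate sulfotransferase. The carried-over models of PPP2R2A and GYG2 were only 1.03 kb and 0.945 kb long. Whether they mark the whole genes was not tested. Next came scaffold00088 with 104 members (13.8 per Mb), of which 14 were nearest to FDPS, an enzyme of the cholesterol pathway, 20 to SLITRK5 and 13 to SLITRK6, both neuronal transmembrane proteins that act in neurite growth, and 7 to GRIA1, an AMPA-type glutamate receptor subunit. On scaffold00056 there were 209 members (11.4 per Mb), although this scaffold had 12.5 gene models per Mb. On scaffold00082 there were 92 (11.1 per Mb) with only 4 gene models. Of these, 21 were nearest to SNTG2, a syntrophin at 0.791 ± 0.0668 TPM (SD, n = 3 libraries), 13 to LOC116421818, with a count of 0 in each library, 13 to SOX11, a transcription factor of neural and craniofacial progenitors at 47.9 ± 9.28 TPM, and 12 to TYRP1, a melanin enzyme at 0.0311 ± 0.0538 TPM.

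Most members stood alone. The median gap between neighbouring members was 84.2 kb, and 6797 (75.4%) had no other member within 10 kb. Chaining members at gaps under 10 kb gave 968 runs of 2 or more and 47 runs of 4 or more. The largest run held 7 members over 22.4 kb near LOC116420878 (scaffold00021:22514012-22536372), with fold enrichments from 3.95 to 6.18 in pool 1 and from 2.61 to 7.94 in pool 2, and 2.05 kb to its nearest H3K27ac. Another 5 runs held 6 members each, of which the shortest lay over 10.6 kb near LOC116422962 and 16.8 kb near LOC100913544. Near LOC116422962 the members rested on 22 to 42 fragments in pool 1 and 25 to 46 in pool 2, more than the class median, at 2.98-fold to 5.85-fold enrichment in pool 1. At a finer scale, 1559 members (17.3%) had another H3K4me3 peak of pool 1 within 1 kb, compared with 34.1% of regions with both marks.

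**Figure D4:**
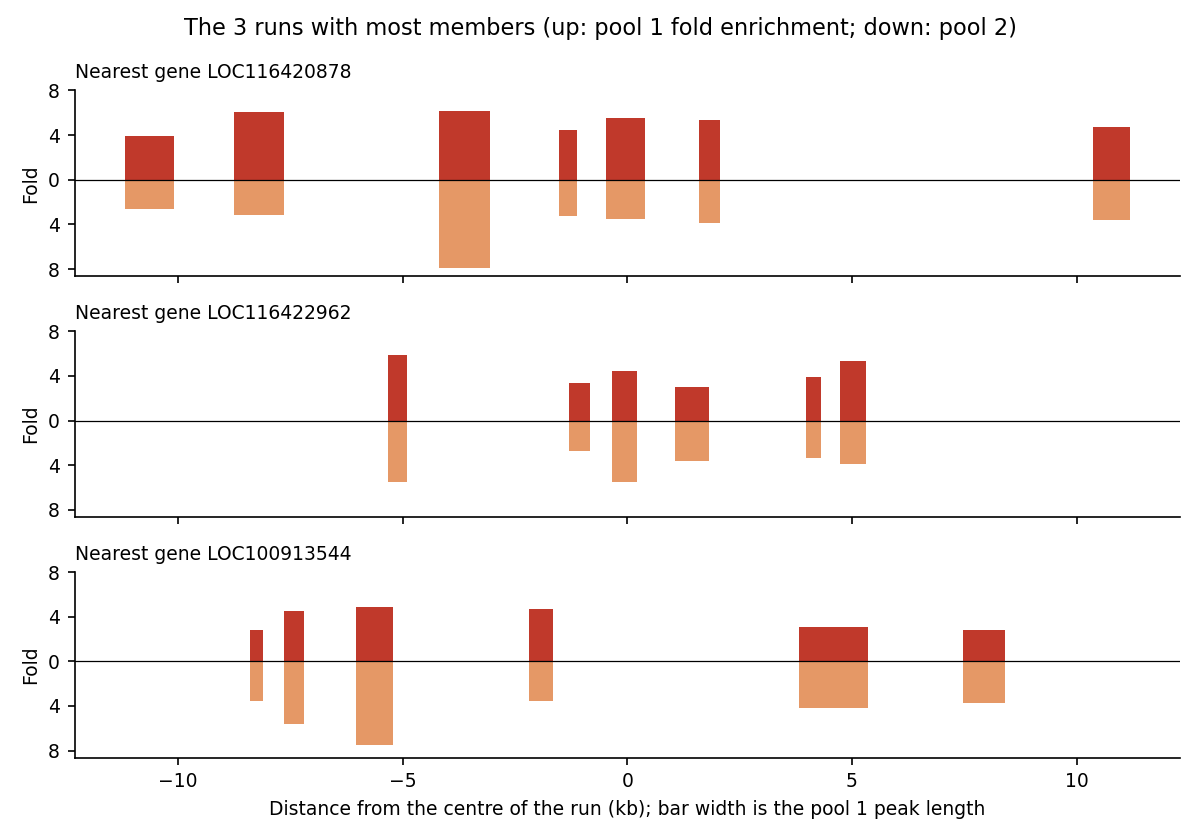
The run with most members and the 2 shortest runs of 6, with each member as a bar at its distance in kb from the centre of the run (width, length in pool 1; height up, fold enrichment in pool 1; height down, fold enrichment in pool 2). The top run, near LOC116420878, has 7 members and the others 6, and every bar is present on both sides.

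The members also varied among themselves. Ordered by mean fold enrichment and taken in 4 groups, the weakest 2253 had a median TSS distance of 102 kb and 24.6% lay inside gene models, and the strongest 2252 a distance of 195 kb and 18.4%. The groups between them were at 142 kb and 162 kb, so distance rose with strength at each step. The strongest were also longer, at a median of 606 bp against 421 bp in pool 1. Members with another H3K4me3 peak within 1 kb were closer to a TSS (79.5 kb) than those without (168 kb), and closer to H3K27ac (2.55 kb against 12.5 kb in pool 1), and their fold enrichment was about the same (4.09 against 4.13). Fold enrichment was among the terms of the rule, and these are descriptions.

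RNA was not used by the rule, and on this measure the members differed from the other classes. A gene was called expressed in a library over 1 TPM, and each region was given to its nearest TSS within 1 Mb. Of the members so assigned, 43.0%, 45.7% and 41.8% had an expressed nearest gene in libraries FP1, FP2 and FP3 (43.5% ± 2.01, SD, n = 3). For regions with both marks the values were 63.9% ± 1.65, and for H3K27ac without H3K4me3 60.4% ± 1.51. Within each library the members were lower: members minus both marks was -21.1, -19.8 and -20.4 percentage points in FP1, FP2 and FP3, a mean of -20.4 ± 0.680 (SD, n = 3). The same regions and genes were scored in each library. This SD therefore covers differences between libraries only, not which regions or genes fell in each class. The exact sign-flip permutation test over 3 libraries (two-sided) gave p = 0.25, which is the smallest it can give, so this design cannot pass 0.05. The libraries are bulk facial tissue, in which fewer cells of a type and less RNA per cell cannot be told apart.

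The difference held at each distance and was smallest far from genes. At 3 to 10 kb the nearest gene was expressed for 46.6% ± 1.52 of members and 71.0% ± 1.53 of regions with both marks, and at 10 to 30 kb for 50.3% ± 1.48 and 68.5% ± 1.64 (SD, n = 3 libraries). At 300 kb to 1 Mb the shares were 39.3% ± 2.12 and 47.7% ± 2.17. Members were lower than either class in 3 of 3 libraries in all 5 distance ranges, with differences from both marks of -24.4 to -8.37 percentage points, each with an exact permutation p = 0.25. The shares above count regions, so a gene with many members counts many times. With each gene counted once, 51.5% ± 1.64 of the nearest genes of members were over 1 TPM. Across gene models as a whole it was 58.1% to 60.5%, so the nearest genes of members were also under that level.

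**Figure D5:**
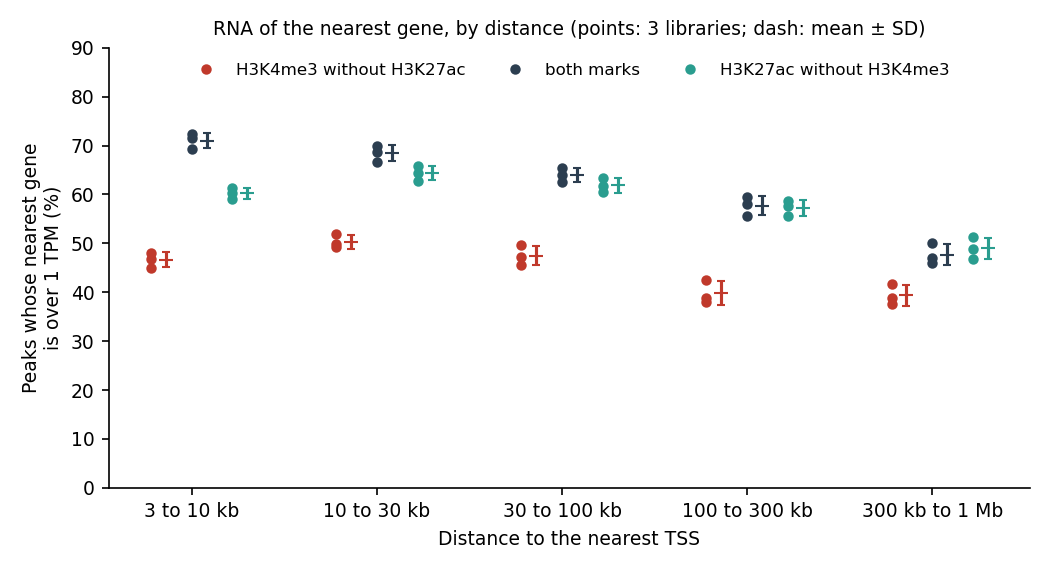
Percent of regions whose nearest gene is over 1 TPM (vertical) by distance to its TSS (horizontal), for members (red), both marks (dark) and H3K27ac without H3K4me3 (green). Points are the 3 RNA libraries and dashes with bars are mean ± SD. The red points are under the points of either other class at each distance, and the difference from both marks goes from -24.4 points at 3 to 10 kb to -8.37 at 300 kb to 1 Mb.

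Several measures moved with this difference. When each gene was counted once per class, the share was 51.5% ± 1.64 for the 3510 genes with counts nearest to members and 63.7% ± 1.43 for the 11265 nearest to both marks, a difference of -12.2 points. Nearest genes of members had a symbol for 57.8% of regions, against 71.1% for both marks. With only gene models that have a symbol, the difference was -14.9 points. Members inside gene models had an expressed nearest gene in 57.9% ± 2.69 of cases and those outside in 39.3% ± 1.81. The 1237 gene models with counts that hold a member between their exons were long, at a median of 114 kb against 45.1 kb for the hosts of regions with both marks, and 70.9% ± 2.19 of them were expressed, against 77.7% ± 1.62 for those hosts and 70.4% ± 1.86 for the hosts of H3K27ac without H3K4me3. The part of gene naming and gene length in the RNA difference was not tested.

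The 8386 members within 1 Mb of a TSS were nearest to 3513 of 21703 gene models (16.2%), and the 41581 regions with both marks in that range to 11275 (52%). Of the 3513 genes, 2164 had exactly 1 member and 142 had 10 or more. The ground closest to a gene sets how many regions can fall to it: this territory, cut at 1 Mb, had a median of 58.4 kb over all genes, 205 kb for genes with a member and 1045 kb for those with 10 or more. Of these 142 genes, 41 were over 1 TPM in all 3 libraries, against 12250 of 21692 gene models with counts (56.5%). The 142 include 61 models without a symbol, and of the 81 with a symbol 39 were over 1 TPM in all libraries. The part of gene naming in this was not tested. Only 3 of the 142 had no region with both marks, while 52% of all gene models had one, on their smaller territory.

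Of genes with a symbol, PPP2R2A led with 37 members, 4 regions with both marks and no distal H3K27ac region without H3K4me3. It was expressed at 59.7, 66.1 and 69.5 TPM in FP1, FP2 and FP3. ERI1, an exonuclease of histone messenger RNA and small RNA, had 27 members and 21.7, 40.4 and 21.5 TPM. EIF4ENIF1, which carries the cap-binding factor eIF4E into the nucleus, had 26 members and a count of 0 in each library. NETO1, an auxiliary subunit of kainate receptors, KPNB1, the importin beta that brings proteins through nuclear pores, GYG2 and TUSC1 had 24 members each. HAUS4, of the augmin complex on spindle microtubules, had 23 members, TRPC7, a cation channel, 22, and DMD, which encodes dystrophin, 21. KPNB1 (88.8 ± 12.9 TPM), HAUS4 (16.5 ± 2.20), DMD (14.9 ± 2.98) and TUSC1 (3.46 ± 1.19) were expressed, whereas NETO1 (0.0381 ± 0.0331), GYG2 (0.552 ± 0.156) and TRPC7 (0 counts in each library) were under 1 TPM. For 7 of these 10 genes the carried-over model was under 5 kb long, as were 16.03% of all models with a symbol. PPP2R2A was 1.03 kb long here and EIF4ENIF1 0.093 kb. Whether such a short model marks the whole gene was not tested. Including models without a symbol, LOC116420547 had the most members, 40, with a count of 0 in each library.

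Among the gene bodies that held many members were those of long genes, most of them known from neurons. SPOCK1, an extracellular proteoglycan, held 19 members on 816 kb. LRP1B, a large receptor of the LDL receptor family, held 14, DPP10, an auxiliary subunit of Kv4 potassium channels, 13, and MDGA2, a synaptic adhesion molecule, 12. Their RNA was low in every library: SPOCK1 stood at 0.557 ± 0.309 TPM, LRP1B at 0.0951 ± 0.0704, DPP10 at 0.202 ± 0.135 and MDGA2 at 0.283 ± 0.176 (SD, n = 3 libraries).

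Genes nearest to members were also counted in gene lists, which were not matched for territory or TSS distance. Of 21 synapse and axon adhesion genes in the table, 16 (76.2%) were nearest to a member, compared with 16.2% of all gene models. As many, 16 (76.2%), had a region with both marks, against 52% of all gene models, so this share was not particular to members. The list had 85 members in all, on a median territory of 990 kb. Per Mb of territory this list had 4.25 members and 2.45 regions with both marks, while all gene models had 3.06 and 15.2. By distance, members as a class were at 3.07 per Mb at 100 to 300 kb from a TSS and 5.95 at 300 kb to 1 Mb. Whether this list differs from other genes with as much territory was not tested. CNTNAP5, a neurexin-like adhesion protein, had 15 members and stood at 0.898 ± 0.554 TPM. CSMD3, a complement-related transmembrane protein of neurons, had 13 and stood at 0.0654 ± 0.0413 TPM. CDH9, CDH10 and CDH12, classical cadherins of neurons, had 6, 6 and 7. Of 21 genes in the list, 6 were over 1 TPM in all libraries.

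Ion channels and glutamate receptors had a member for 9 of 19 genes (47.4%) and 32 members in all, or 4.22 per Mb, with the same density of regions with both marks. Of these 19 genes, 10 (52.6%) had a region with both marks, against 52% of all gene models. Their median territory was 425 kb, against 58.4 kb for all gene models. KCNH7, an ERG-type potassium channel, had 8, at 0.0521 ± 0.0175 TPM. Transcription factors of other organs, with a median territory of 116 kb, had a member for 10 of 21 genes (47.6%). More of them, 17 of 21 (81.0%), had a region with both marks, with 43 such regions in all or 13.1 per Mb. The list had 15 members in all or 4.59 per Mb, and 3 of the 21 genes were over 1 TPM in all libraries. WT1, of the kidney and gonad, had 3. Single members were nearest to PDX1, PTF1A, GATA6, LHX3, OLIG2, ISL2, SIM1 and NEUROD6. Of these named genes, ISL2 was the highest, at 16.6 ± 1.23 TPM.

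Genes of the face itself had fewer members per Mb of territory than all gene models (3.06), though not a lower share of genes with one in the signaling list. Of 16 craniofacial signaling genes in the table, 4 (25%, against 16.2% of all gene models) had a member, with 8 in all (1.24 per Mb), and all 16 had a region with both marks, with 127 in all (19.7 per Mb). BMP2, a growth factor of bone and face, had 4 members and stood at 22.4 ± 5.11 TPM, and TGFB2, a growth factor of the palate, had 2 and stood at 28.3 ± 5.24. Of 20 neural crest and facial mesenchyme genes 3 (15%) had a member, with 8 in all (1.77 per Mb), while each of the 20 had a region with both marks, with 151 in all (33.5 per Mb). TFAP2B, an AP-2 factor of the neural crest, had 4 and MSX2, a homeobox factor of the skull and teeth, 3, at 56.0 ± 5.92 and 54.7 ± 12.6 TPM. Every gene of these 2 lists in the table was over 1 TPM in all libraries.

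The remaining lists were small in members. Skin and periderm genes had 1 member over 12 genes, at AQP3, a water and glycerol channel, against 40 regions with both marks. Immune receptors had 1 over 11 genes, at TLR4, a receptor for bacterial lipopolysaccharide. Skeletal muscle genes had 7 over 11 genes, of which 6 were nearest to MEF2C, a MADS-box factor of muscle and neural crest that stood at 29.9 ± 9.78 TPM. Germ line genes had 5 over 11, at TEX11 (3) and SYCP2 (2), both of meiosis. Trunk HOX genes had 4 over 16, with 2 at HOXC12, 1 at HOXA13 and 1 at HOXC11, all with a count of 0 in each library, on a total territory of 0.315 Mb. The shares of genes with a member were 8.33%, 9.09%, 18.2%, 18.2% and 18.8% in that order, the last 3 near the 16.2% of all gene models. Per Mb of territory these lists had 1.11, 1.11, 2.84, 6.40 and 12.7 members, against 3.06 for all gene models, and the last 2 rest on 5 and 4 members.

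The labelled tissue was checked with RNA markers. Of 5 facial mesenchyme markers in the table, TWIST1 was the highest at 287 ± 70.9 TPM and ALX4 the lowest at 12.6 ± 5.20, and the facial epithelium markers TP63, EPCAM and KRT18 stood at 57.2 ± 25.2, 57.7 ± 13.4 and 90.05 ± 11.1 TPM. Of markers of other tissues, NKX2-1 had a count of 0 in each library, APOB, CD3E, NEUROD6, PTPRC and TBR1 were under 1 TPM on average, SFTPC was at 1.51 ± 1.07, and EMX2 (14.7 ± 6.46) and GATA1 (21.7 ± 1.93), of blood precursors, were higher. The 3 libraries held 17419099, 16358621 and 16096971 counts over gene models.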

How the data were processed

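ChIP-seq of H3K4me3 and H3K27ac in 2 pools, each against its own input, and RNA-seq of 3 libraries were used. Per the submitters' notes, the authors trimmed with cutadapt (1.9.1), aligned with Bowtie2 (2.3.5.1) to their dunnart assembly, marked and dropped duplicates (Picard 2.23.1), and ran MACS2 (2.1.1) per pool to call peaks. The deposited lists give fold enrichment, a ratio, and -log10 p-values and -log10 q-values, and they end at an unadjusted p of 0.01. A deposited display score was not used. RNA counts per gene were made by the authors with featureCounts of Subread (2.0.1) over gene models lifted from the Tasmanian devil, read on the reverse strand. The deposited counts are unscaled, and 11 genes whose entry is broken over 2 lines gave positions but no counts.

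A TSS was the outermost exon end on the strand. Distances run between edges. TPM came from counts and exon length. Fragments (k) and background (b) at a summit were solved from fold = (k + 1)/(b + 1) and the Poisson p-value for k of up to 400. The class rule, overlap and this solution were tested on simulated data. The only test was an exact sign-flip permutation test over libraries. Pools may differ technically as well as biologically, and 2 of them allow no test. Named regions were the 10 of highest mean fold, the 5 longest and those nearest each limit, and named genes the 10 with a symbol and most members, the 5 holding most members and up to 2 per list, with the 3 runs (gaps under 10 kb) of most members, shorter first. The other ranking, scaffolds and the remaining list genes were chosen after values were seen, and the members and lists were chosen with earlier results of these data known. Some genes that the rule names are not reported here. No sequence is shown, since no genome of this build was used here. Python (3.11.15), numpy (2.4.6), pandas (2.3.3), scipy (1.17.1), matplotlib (3.10.9), R (4.3.3) and edgeR (4.0.16, for TMM library sizes only) were used.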

Additional observations from a re-analysis of the deposited data

How the results depend on the processing

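Leaving out a whole pool changed the class most. With 1 pool the rule asks for no partner and uses the H3K27ac peaks of that pool only. From pool 1 or pool 2 alone it gave 28377 to 28879 regions in place of 9009, and 8794 to 8838 nearest genes in place of 3513. The median was 3.59-fold to 3.72-fold, with 29.7% to 29.98% inside gene models. The median distance to H3K27ac of that pool was 7.56 to 7.77 kb, against 10.9 kb for members in either pool. The other distances to H3K27ac in this paragraph are to the nearer of the 2 pools. The RNA difference kept its direction under all 22 alternatives, from -21.3 to -12.2 percentage points, and was -12.9 from either pool alone. Region and gene counts stayed within 1.5 times under the other alternatives (7450 to 9327 regions, 2659 to 3646 genes). A q under 0.01 for every list gave 9280 regions, 4.40-fold and 8.93 kb to H3K27ac. The median distance to H3K27ac (7.74 kb) moved by more than the spread between pools, to 8.29 kb with 50% of both lengths, 7.61 kb with 1 shared base, 7.61 kb with every deposited H3K27ac peak, 7.53 and 8.30 kb with a TSS limit of 1 and 10 kb, 7.60 kb with symbol genes only, and, for 2 settings chosen after seeing the data, 8.96 kb without other H3K4me3 peaks within 1 kb and 7.997 kb where the replicate 2 partner also lacked H3K27ac. The share inside gene models (21.0%) moved to 19.6% over 10 kb from the TSS, 17.8% with symbol genes and 19.9% without close H3K4me3 peaks. Why these values moved was not tested beyond what each setting removes. No paired analysis was possible because there are no groups of samples to pair by replicate number, and the RNA columns carry none; the class comparison is itself made within each library. At 12 fragments per summit, a region of this strength in 1 pool is often not called in the other, and an H3K27ac signal under 7 fragments would not be called, so absence of H3K27ac here means absence of a called peak.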
